A study of Mus musculus with 21 samples.

Results

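Spiral ganglion neurons (SGNs) of the mouse cochlea were compared between E15.5, an embryonic day, and P1, a postnatal day, the last embryonic and the first postnatal age of a time course by bulk RNA-Seq. The genes described are those with more than 1 CPM (a gene's count per 1000000 counts of its library) in all 3 libraries of E15.5 or in all 3 of P1. They number 14269 of the 52550 genes in the table, of which 11617 passed at both ages, 1048 at E15.5 only and 1604 at P1 only. The comparison uses 6 of the 21 libraries of the series, and the other 9 SGN libraries (P8, P14 and P30) entered the same fit to estimate the spread between libraries. The reference cells of the series were hair cells (HCs), taken at P12, and glial cells of the cochlea, taken at P8. The HCs were cochlear and vestibular HCs together, sorted by fluorescence from *Atoh1-CreER+* mice with a tdTomato reporter. The glia were picked by hand from *vGlut3-iCreER/+* mice with that reporter. Both kinds of reference mice had received tamoxifen in the first days after birth. All SGNs came from C57BL/6 mice that carried *ShhCre/+* and the reporter *Rosa26-CAG-loxp-stop-loxp-tdTomato* (Ai9)/+ at both ages, and no untreated or wild-type group stands beside them. *ShhCre* leaves tdTomato on in any cell that has once made Shh, so the red cells are a lineage and not a readout of current *Shh*. The study names E15.5 as the earliest age with a signal bright enough to pick, and cells were chosen by hand under a fluorescence microscope. The labels give 69, 90 and 92 picked cells for the E15.5 libraries and 195, 140 and 150 for the P1 libraries, and the RNA was amplified before library construction. Samples had to pass a qPCR check before sequencing that included *Sox10* and *Myo6*, so the levels of these genes are partly set by that choice. The labels do not say whether the libraries of an age came from separate animals or litters, so p-values measure only the spread between these libraries.

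SGNs carry sound information from the HCs to the brainstem. They leave the cell cycle in the embryo, extend an axon in each direction and contact HCs before birth, whereas hearing begins only in the second postnatal week. Between late embryo and newborn they are known to refine their targets, to fire before any sound is heard, and to acquire the ion channels and release machinery of a fast glutamatergic neuron. Type I SGNs, the majority, contact inner HCs, and type II SGNs contact outer HCs.

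Libraries held 12887010 to 18737521 counts on genes at E15.5 and 21915914 to 33361246 at P1, so the floor of 3 counts, which is the most that a gene at 0 leaves possible, equalled 0.160 to 0.233 CPM at E15.5 and 0.0899 to 0.137 CPM at P1. Such limits cover counting error only, because amplified reads without molecular identifiers are not independent molecules. Pearson's r of log2(RPKM + 1) across the 15113 genes tested was 0.852 to 0.854 between the E15.5 libraries and 0.923 to 0.953 between the P1 libraries. E15.5 replicate 2 lay closer to each P1 library (r = 0.857 to 0.881, highest with P1 replicate 1) than to either other E15.5 library. These coefficients run across genes, which are no replicates, and describe the libraries. Levels are given as RPKM, counts divided by the gene's length in kilobases and by the effective library size in units of 1000000 counts, for replicates 1, 2 and 3 in that order.

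From E15.5 to P1, 758 of the genes described rose and 480 fell, with a change over 2-fold and a Benjamini-Hochberg (BH) adjusted p under 0.05 by limma-voom. These are 5.31% and 3.36% (8.68% in all) of the 14269 genes, beside 5.08% and 3.18% (8.26% in all) of the 15113 genes tested over all SGN ages, and the median log2 fold change over all of them was 0.06. Of the rises, 354 exceeded 4-fold and 183 exceeded 8-fold, against 226 and 110 of the falls. The P1 libraries all lay above the E15.5 libraries in 15.9% of the genes described and all lay below them in 11.7%. That separation held in 736 of the 758 rises and in 458 of the 480 falls. Genes that passed the CPM minimum at one age only could be called in one direction only, and they contributed 183 of the rises and 142 of the falls. Among the 12202 protein-coding genes, 691 rose and 338 fell, whereas among 589 unconfirmed transcript models of the annotation (biotype TEC) 11 rose (1.87%) and 57 fell (9.68%), with a median log2 fold change of -1.02. Scaling by library size alone, in place of TMM factors, moved the median over all genes tested from 0.07 to -0.07 and turned the split from 767 rises and 481 falls into 569 and 649. A fit of the 6 libraries alone called 362 of the 758 rises and 193 of the 480 falls.

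**Figure D1:**
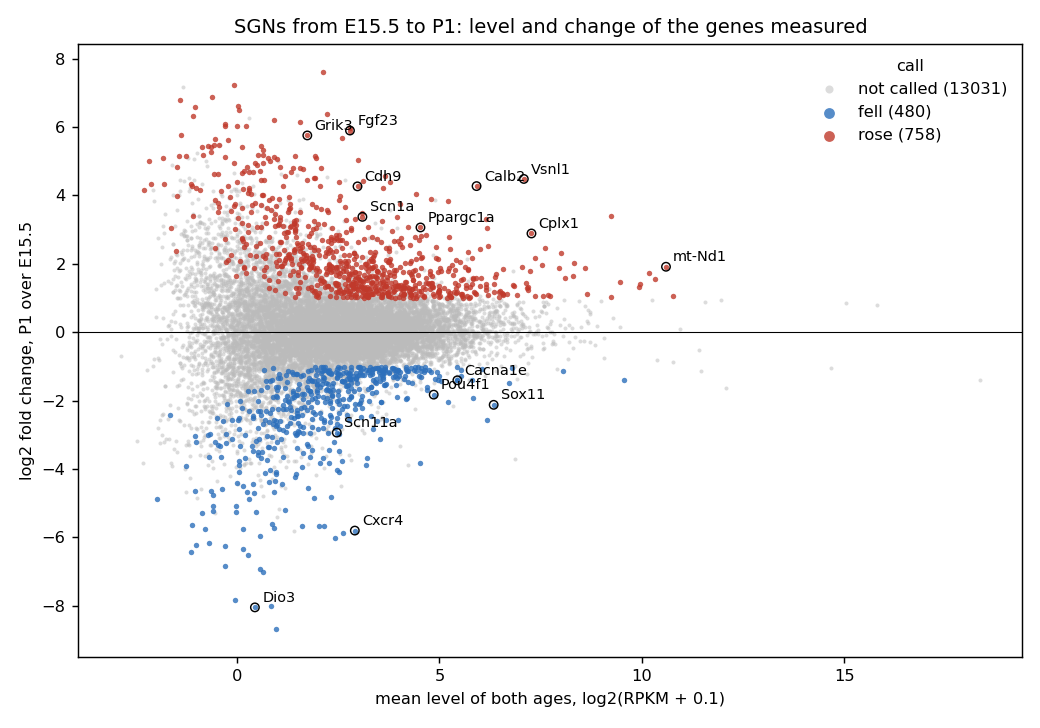
Each point is 1 of the 14269 genes, with the log2 of the mean RPKM of both ages plus 0.1 on the x axis and the log2 fold change of P1 over E15.5 on the y axis. Red marks the 758 genes that rose, blue the 480 that fell and grey the 13031 not called, and the circled genes are named in the text.

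The largest rises among well-measured genes included several secreted and membrane proteins. *Cpne9*, a calcium-dependent membrane-binding copine (chromosome 6, 113282307 to 113305627), had 0.0853, 0.266 and 0.358 RPKM at E15.5 and 14.7, 10.9 and 14.8 at P1. *Fgf23*, a hormone of the FGF family, had 0, 0.108 and 2.68 RPKM at E15.5 and 14.2, 17.4 and 6.53 at P1 (log2 fold change 5.90, standard error 1.34, limma-voom BH-adjusted p = 0.0107). *Car12*, a carbonic anhydrase of the cell surface, had 0.300, 0.931 and 0.295 RPKM at E15.5 and 12.8, 19.8 and 13.4 at P1 (log2 fold change 5.05, standard error 0.70, limma-voom BH-adjusted p = 0.000419). The genes of this group were picked for ages that do not overlap. All of the largest rises but *Car12* and *Ighm* passed the CPM minimum at P1 only, so they could only rise. HCs held more *Car12* (71.1 ± 0.570 RPKM) than P1 SGNs. *Tmem196* (4.68 ± 0.92, log2 fold change ± standard error), *Brinp3* (4.83 ± 1.10), which encodes a neuronal BMP- and retinoic acid-inducible protein, the adenosine receptor gene *Adora1* (5.10 ± 1.28) and the homeobox gene *Prrx2* (5.08 ± 0.98) also rose. The remaining large rises were *Stum*, *Fbln1*, *Grik3*, *Lmod3* and *Ighm*, between 4.57 and 7.61. An exon overlap with *Mybph* on the other strand covers 20.1% of *Adora1*, and reads of overlapping genes cannot be told apart here. With 1 library left out, calls were lost for *Brinp3* without E15.5 replicate 3 (limma-voom BH-adjusted p = 0.0515), *Adora1* without E15.5 replicate 1 or 3 (adjusted p = 0.0659 and 0.0889), *Fbln1* without E15.5 replicate 3 (adjusted p = 0.0702), *Lmod3* without any E15.5 library or P1 replicate 2 (adjusted p = 0.0512 to 0.0827) and *Ighm* without E15.5 replicate 3 (adjusted p = 0.0616). As alternatives, the quasi-likelihood test of edgeR did not call *Fgf23* or *Fbln1*, and on the 6 libraries alone it did not call *Fgf23*, *Lmod3*, *Adora1* or *Prrx2*. With either kind of quality weights, only *Cpne9*, *Prrx2* and *Car12* of these largest rises kept their calls.

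On the falling side, *Ptgir*, the prostacyclin receptor, had 8.22, 7.70 and 10.6 RPKM at E15.5 and 1.21, 0.238 and 0.665 at P1 (log2 fold change -3.83, standard error 0.62, limma-voom BH-adjusted p = 0.00134). *Tmem132d*, which encodes an adhesion-type membrane protein, had 7.55, 3.29 and 11.8 RPKM at E15.5 and 0.385, 0.405 and 0.684 at P1 (log2 fold change -3.82, standard error 0.81, limma-voom BH-adjusted p = 0.00754). *Igsf9*, an immunoglobulin superfamily member, had 6.03, 3.59 and 8.78 RPKM at E15.5 and 1.35, 0.367 and 0.129 at P1 (log2 fold change -3.66, standard error 0.69, limma-voom BH-adjusted p = 0.00369). All 3 were at or under 1.35 RPKM in every P1 library. *Fgd3*, a guanine nucleotide exchange factor, fell by 3.52 on the log2 scale and *Draxin*, a repulsive axon guidance protein, fell by 3.68. The others were *Ceacam16*, *Cxcr4*, *Gpc2*, *Tectb*, *Kcnh4*, *Gm43858* and *Tent5a*, picked by the same rule. *Ptgir*, *Igsf9*, *Ceacam16*, *Cxcr4*, *Gpc2*, *Gm43858* and *Tent5a* passed the CPM minimum at E15.5 only, so they could only fall. Leaving out 1 library ended the calls of *Draxin* without P1 replicate 2 (limma-voom BH-adjusted p = 0.0533), *Tectb* without E15.5 replicate 3 or any P1 library (adjusted p = 0.0582 to 0.0996), *Gm43858* without P1 replicate 1 (adjusted p = 0.0533) and *Tent5a* without any 1 of the 6 libraries (adjusted p = 0.0593 to 0.141). No call was made by the fit of the 6 libraries for *Tent5a*, the quasi-likelihood test of edgeR for *Draxin*, *Tectb*, *Gm43858*, *Kcnh4* or *Tent5a* and DESeq2 for *Draxin* or *Tectb*. A quality weight per age ended the calls of *Draxin*, *Tectb* and *Tent5a*, and sample quality weights that of *Tent5a*. On the 6 libraries alone, edgeR did not call *Gm43858* or *Tent5a*.

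The labelled cell type was checked against its markers first. *Slc17a7*, a vesicular glutamate transporter that loads synaptic vesicles, had 3.90, 8.77 and 1.77 RPKM at E15.5 and 19.8, 36.1 and 22.7 at P1 and rose (log2 fold change 2.67, standard error 0.49, limma-voom BH-adjusted p = 0.00302). *Slc17a6*, its other main neuronal form, had 12.7, 16.7 and 18.2 RPKM at E15.5 and 22.9, 38.5 and 36.3 at P1, with a log2 fold change of 0.97 that stayed under 2-fold. A further marker, *Lypd1*, had 30.4, 16.3 and 36 RPKM at E15.5 and 61, 50.3 and 39 at P1 (limma-voom BH-adjusted p = 0.0732). The P1 libraries lay above the E15.5 libraries in both transporters and in *Lypd1*. Of 16 pan-neuronal genes, *Snap25* and *Gabbr2* rose (12.5%, against 5.31% of all genes described), none fell, and the median log2 fold change was 0.46. *Gabbr2*, a subunit of the metabotropic GABA receptor, had 11.9, 14.1 and 10.3 RPKM at E15.5 and 35, 47.6 and 42.5 at P1 (log2 fold change 1.78, standard error 0.18, limma-voom BH-adjusted p = 3.01e-05), with no overlap between the ages.

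Markers of HCs were higher at P1 than at E15.5. Of 18 measured HC markers, all had a positive log2 fold change (median 3.10), 5 rose (*Gfi1*, *Tmc2*, *Espn*, *Chrna9* and *Chrna10*) and none fell. These rises are 27.8% of the list, against 5.31% of all genes described. The number of rises was 0 without E15.5 replicate 3, 1 without E15.5 replicate 1 or 2 or P1 replicate 2, and 3 without P1 replicate 1 or 3. It was 2 in the fit of the 6 libraries, 0 with either kind of quality weights and 10 with DESeq2, and none of the 5 was kept in all fits. Dropping single libraries removed the calls of *Gfi1* without any E15.5 library or P1 replicate 2 (limma-voom BH-adjusted p = 0.0604 to 0.114), *Tmc2* without E15.5 replicate 1 or 3 (adjusted p = 0.0613 and 0.0832), *Espn* without any E15.5 library or P1 replicate 2 (adjusted p = 0.0609 to 0.0822), *Chrna9* without any 1 of the 6 libraries (adjusted p = 0.0573 to 0.121) and *Chrna10* without any 1 of the 6 libraries (adjusted p = 0.0585 to 0.132). *Gfi1*, *Espn*, *Chrna9* and *Chrna10* lost their calls in the fit of the 6 libraries and *Chrna9* and *Chrna10* lost their calls in the quasi-likelihood test of edgeR. *Ocm*, the calcium buffer of outer HCs, had 0, 64.4 and 76 RPKM at E15.5 and 215, 220.4 and 159 at P1, and it was at 699.8 in HCs. *Slc26a5*, the outer HC motor protein prestin, had 0.0437, 8.004 and 7.07 RPKM at E15.5 and 20.8, 24.1 and 21.1 at P1, against 148 in HCs. The transcription factor *Pou4f3* had 0, 2.79 and 1.32 RPKM at E15.5 and 7.67, 18.5 and 7.04 at P1, against 141 in HCs. In each of these 3 genes E15.5 replicate 1 was at or near 0 and the P1 libraries lay above all E15.5 libraries. The summed level of the list was 27.3, 115 and 129.7 RPKM at E15.5 and 316, 429 and 261 at P1, against 2267 in HCs. Among 19 HC markers over 10 RPKM in HCs, levels in SGNs had a median of 0.120%, 2.21% and 1.89% at E15.5 and 5.45%, 9.40% and 5.26% at P1, as a percent of the HC level. Fewer HCs in a pool and less RNA per cell cannot be told apart in bulk samples, and the same holds for every cell type below.

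The values bear on the other rises as follows. Of the 758 rises, 5 are on the HC list, and for 19 others an HC trace at the median marker share would give at least 50% of the P1 level. They include *Ighm* and *Pcdh20*, and *Cdh23*, the tip link cadherin of HCs, for which the share is 52.5%. The trace would give at least 10% in 110 of the rises outside the list. Without the list and the genes at 50% or more, 734 rises are left. For *Car12*, *Kcns3*, *Rorb* and *Tnc* the trace would give 31.2%, 34.5%, 42.8% and 44.9% of the P1 level. The part of such a trace in these results was not tested. In fits without 1 library, calls were lost for *Kcns3* without any 1 library other than P1 replicate 1 (limma-voom BH-adjusted p = 0.0772 to 0.146), *Rorb* without any 1 library other than P1 replicate 1 (adjusted p = 0.0559 to 0.0936) and *Tnc* without E15.5 replicate 1 or 3 (adjusted p = 0.0505 and 0.0729). The fit of the 6 libraries did not call *Kcns3*, *Rorb* or *Tnc* and the quasi-likelihood test of edgeR did not call *Tnc*.

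Markers of glia and of other cells were low and uneven. *Sox10*, the glial transcription factor, had 1.21, 2.88 and 8.88 RPKM at E15.5 and 1.00, 1.51 and 1.11 at P1, against 174 in glial cells. As a percent of the level in glia, 23 glial markers had a median of 1.07%, 2.30% and 2.24% at E15.5 and 0.848%, 1.47% and 0.726% at P1. Of 21 measured glial markers, *Cdh19* fell, *S100b* rose and 19 were not called, and the P1 SGNs exceeded glia in *S100b*. That is 4.76% in each direction, beside 5.31% of all genes described that rose and 3.36% that fell. With 1 library left out, the call was lost for *Cdh19* without P1 replicate 2 (limma-voom BH-adjusted p = 0.0943). No call was made by the fit of the 6 libraries for *Cdh19*. Endothelial *Cdh5* stood at 22.1, 0.0378 and 0 RPKM at P1, so it was at or near 0 in all P1 libraries but replicate 1, and *Hbb-bs*, an adult haemoglobin gene, was at 72.2, 0 and 0 RPKM at E15.5 and 11.1, 0 and 0 at P1. Summed mesenchyme and matrix markers ran from 61.4 to 137 RPKM in 4 of the libraries but reached 1134 in E15.5 replicate 2 and 593 in P1 replicate 1. Inhibitory neuron markers *Gad1*, *Gad2* and *Slc32a1* stayed at or under 0.406 RPKM in all 6 libraries, and *Chat* was at 0 counts in each.

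**Figure D2:**
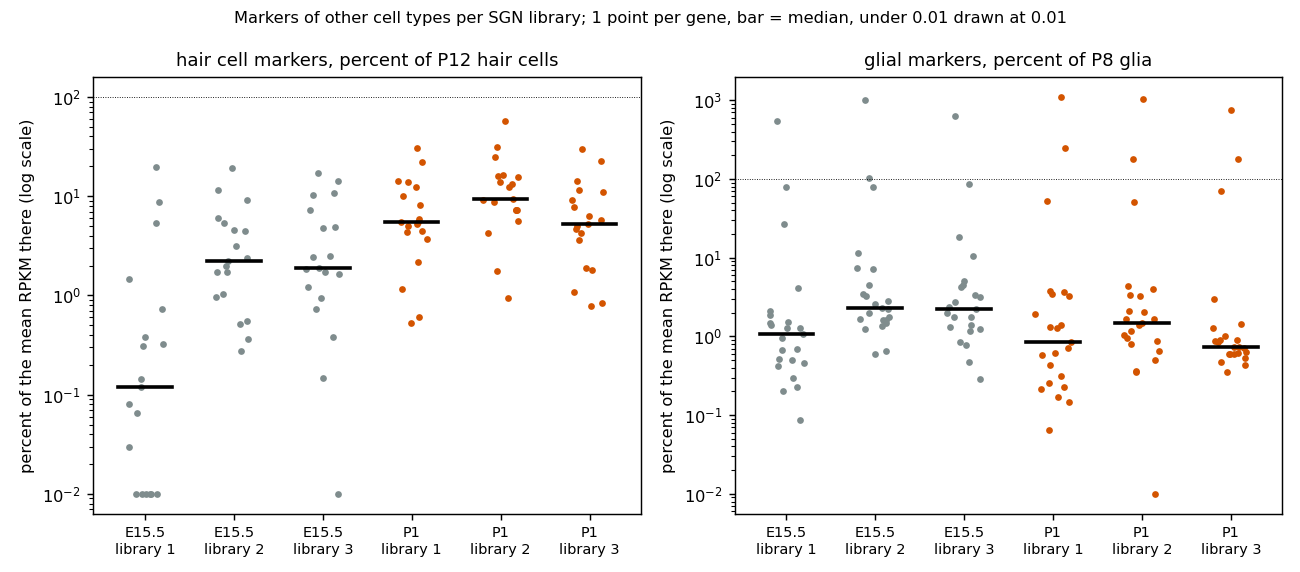
Points are marker genes in each of the 6 SGN libraries (x axis), with their RPKM as a percent of the mean in the P12 HC libraries (left, 19 genes) or the P8 glial libraries (right, 23 genes) on a log y axis, and bars mark medians. The HC medians at P1 run from 5.26% to 9.40%, above the 0.120% to 2.21% at E15.5, and the glial medians lie between 0.726% and 2.30%.

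Transcription factors of early neurogenesis fell or were not called. *Sox11*, an HMG-box factor of newborn neurons, had 170.5, 85 and 142 RPKM at E15.5 and 33.8, 23.5 and 29.6 at P1 (log2 fold change -2.12, standard error 0.25, limma-voom BH-adjusted p = 0.000117). *Mycn*, a proto-oncogene that drives progenitor growth, had 6.07, 7.79 and 6.44 RPKM at E15.5 and 0.932, 1.30 and 0.724 at P1 (log2 fold change -2.81, standard error 0.43, limma-voom BH-adjusted p = 0.000968). Both were lower in every P1 library than in any E15.5 library. *Ebf1*, a helix-loop-helix factor of early neurons, also fell (-1.16 ± 0.19), as did *Nhlh1* (-2.19 ± 0.64) and *Nhlh2* (-1.89 ± 0.59), 2 factors that act just after cell cycle exit. Of the 21 measured genes of this list 5 fell (23.8%, against 3.36% of all genes described) and none rose. The median log2 fold change was -0.72. *Sox11*, *Mycn* and *Ebf1* kept their calls in each of 14 alternative fits and with each of the 6 libraries left out, and the number of falls was 3 without E15.5 replicate 3 or any P1 library. Among 57 cell cycle and replication genes, *Cdk4* (-1.49 ± 0.25), *Ezh2* (-1.20 ± 0.37) and the histone gene *H2afz* (-1.03 ± 0.23) fell (5.26%, against 3.36% of all genes described), 54 were not called and the median was -0.49. *Mki67*, a proliferation marker, had 4.10, 4.56 and 0.914 RPKM at E15.5 and 9.87, 0.277 and 0.474 at P1, highest in P1 replicate 1. Leaving out 1 library ended the calls of *Nhlh1* without any 1 library other than E15.5 replicate 2 (limma-voom BH-adjusted p = 0.0634 to 0.128), *Nhlh2* without any 1 library other than E15.5 replicate 2 (adjusted p = 0.0747 to 0.14), *Ezh2* without E15.5 replicate 1 or 3 or P1 replicate 2 or 3 (adjusted p = 0.0628 to 0.182) and *H2afz* without E15.5 replicate 1 or P1 replicate 2 (log2 fold change -0.94 and -0.97). Among the alternatives, the fit of the 6 libraries did not call *Nhlh1*, *Nhlh2* or *Ezh2*, the quasi-likelihood test of edgeR did not call *Nhlh2* or *Ezh2* and DESeq2 did not call *Nhlh2*.

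The factors of later SGN identity moved in both directions. *Prox1*, a homeobox factor, had 11.6, 5.79 and 12.9 RPKM at E15.5 and 66.3, 79 and 51.4 at P1 (log2 fold change 2.78, standard error 0.28, limma-voom BH-adjusted p = 2.39e-05), the largest rise among the 30 measured regulators. *Pou4f1*, a POU factor of sensory neurons, had 64.9, 33 and 39.3 RPKM at E15.5 and 13.9, 11.1 and 11.3 at P1 (log2 fold change -1.82, standard error 0.25, limma-voom BH-adjusted p = 0.000361). *Gata3*, a zinc-finger factor needed for SGN development, had 53.1, 53.6 and 91.7 RPKM at E15.5 and 30.7, 28 and 20.7 at P1 (log2 fold change -1.29, standard error 0.25, limma-voom BH-adjusted p = 0.00406). The P1 libraries lay above the E15.5 libraries in *Prox1* and below them in both other genes. *Mef2c* (-1.21 ± 0.30) and *Onecut2* (-1.06 ± 0.19) also fell, *Tshz2* rose (1.36 ± 0.30) and 24 were not called. Of the 30 regulators 6.67% rose and 13.3% fell, beside 5.31% and 3.36% of all genes described. *Prox1* is also on the list of cochlear epithelium markers, whose other called members *Ceacam16*, *Tectb* and *Jag1* fell. Calls lost without 1 library were those of *Mef2c* without P1 replicate 1 or 2 (limma-voom BH-adjusted p = 0.0716 and 0.0567) and without E15.5 replicate 2 (log2 fold change -0.87) and *Onecut2* without E15.5 replicate 1 or 3 (log2 fold change -0.93 and -0.97). *Mef2c* lost its call in the fit of the 6 libraries.

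Axon guidance genes fell more often than they rose. Of 58 measured members 10 fell (17.2%, against 3.36% of all genes described) and 3 rose (5.17%, against 5.31%). The median log2 fold change was -0.23. *Cxcr4*, the receptor of the chemokine Cxcl12, had 5.57, 17.6 and 20.6 RPKM at E15.5 and 0.349, 0.176 and 0.189 at P1, a loss of nearly all signal in each P1 library. *Unc5b*, a netrin receptor, had 37.2, 28.7 and 49.98 RPKM at E15.5 and 17.4, 9.75 and 10.7 at P1 (log2 fold change -1.59, standard error 0.24, limma-voom BH-adjusted p = 0.00073). *Plxna3*, a semaphorin co-receptor, had 25.7, 18.8 and 22.1 RPKM at E15.5 and 6.18, 7.81 and 9.46 at P1 (log2 fold change -1.53, standard error 0.20, limma-voom BH-adjusted p = 0.000264). The ages did not overlap in either receptor. *Gpc2* and *Efna3* fell by 4.10 and 2.00 on the log2 scale, *Ephb6*, *Sema6d*, *Unc5c*, *Sema3a* and *Ephb2* by 1.02 to 1.56, while *Unc5a* (3.51 ± 0.89), *Nrp2* (1.92 ± 0.46) and *Plxna1* (1.09 ± 0.16) rose. Without P1 replicate 3 the number of falls was 6. In the fit of the 6 libraries 6 of the falls and 1 of the rises kept their calls. The falls of *Cxcr4*, *Gpc2*, *Unc5b* and *Plxna3* kept theirs in all 14 alternatives and all 6 fits without 1 library, and each other call of the list was lost in at least 1 of these. *Gpc2* shares 55.6% of its exon bases with *Gm43720*. Dropping single libraries removed the calls of *Ephb6* without E15.5 replicate 3 or P1 replicate 2 or 3 (limma-voom BH-adjusted p = 0.0558 to 0.0661), *Sema6d* without E15.5 replicate 2 or P1 replicate 2 or 3 (adjusted p = 0.0622 to 0.105), *Unc5c* without E15.5 replicate 3 (log2 fold change -0.85) and *Sema3a* without any 1 library other than E15.5 replicate 2 (adjusted p = 0.0614 to 0.102). Lost as well were *Ephb2* without E15.5 replicate 3 or P1 replicate 3 (log2 fold change -0.75 and -0.88), *Unc5a* without E15.5 replicate 1 or 3 (limma-voom BH-adjusted p = 0.0571 and 0.0957), *Nrp2* without E15.5 replicate 3 (adjusted p = 0.0929) and *Plxna1* without P1 replicate 2 (log2 fold change 0.99). As alternatives, the fit of the 6 libraries did not call *Efna3*, *Ephb6*, *Sema6d*, *Sema3a*, *Unc5a* or *Nrp2*, the quasi-likelihood test of edgeR did not call *Efna3*, *Ephb6*, *Sema6d* or *Nrp2* and DESeq2 did not call *Efna3*.

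Adhesion genes split. *Cdh9*, a classical cadherin, had 1.63, 0.849 and 0.333 RPKM at E15.5 and 12.1 to 16.2 in the P1 libraries (log2 fold change 4.26, standard error 0.68, limma-voom BH-adjusted p = 0.00129). *Cdh4*, another classical cadherin, had 42.4, 31.4 and 41.5 RPKM at E15.5 and 18.5, 14.8 and 17.5 at P1 (log2 fold change -1.16, standard error 0.16, limma-voom BH-adjusted p = 0.00042). Over the 49 measured cadherin and immunoglobulin adhesion genes 7 rose (14.3%, against 5.31% of all genes described) and 5 fell (10.2%, against 3.36%). The median was -0.05. *Cdh9* and *Cdh4* kept their calls in every alternative and leave-one-out fit. *Thy1*, *Kirrel3*, *Cadm2* and *Igsf3* were also called. The number of rises was 3 without E15.5 replicate 1 or 3, and 4 without P1 replicate 3, and that of falls 2 without E15.5 replicate 3, and 3 without E15.5 replicate 1 or any P1 library. Of 38 synaptic organisers *Slitrk4* and *Flrt1* rose, *Lrrtm2* and *Tenm4* fell and 34 were not called, which is 5.26% in each direction beside 5.31% and 3.36% of all genes described. In fits without 1 library, calls were lost for *Thy1* without E15.5 replicate 1 or 3 or P1 replicate 2 or 3 (limma-voom BH-adjusted p = 0.0677 to 0.192), *Kirrel3* without E15.5 replicate 1 or 2 or P1 replicate 1 or 3 (adjusted p = 0.0685 to 0.0984), *Cadm2* without E15.5 replicate 3 (adjusted p = 0.0581), *Slitrk4* without E15.5 replicate 1 or 3 or P1 replicate 2 or 3 (adjusted p = 0.0574 to 0.0907) and *Flrt1* without any 1 library other than P1 replicate 3 (adjusted p = 0.0553 to 0.0779). No call was made by the fit of the 6 libraries for *Thy1*, *Kirrel3*, *Cadm2*, *Igsf3*, *Slitrk4* or *Flrt1*, the quasi-likelihood test of edgeR for *Thy1*, *Kirrel3* or *Lrrtm2* and DESeq2 for *Thy1* or *Kirrel3*.

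Among 54 axon growth and microtubule genes 6 rose (11.1%, against 5.31% of all genes described) and none fell. *Nefh*, the heavy neurofilament of large myelinated axons, had 7.87, 21.6 and 15.1 RPKM at E15.5 and 111, 199 and 74.7 at P1 (log2 fold change 3.06, standard error 0.44, limma-voom BH-adjusted p = 0.000551). *Tuba8* (2.4 ± 0.75), *Tuba4a* (1.34 ± 0.25), *Tubb2a* (1.05 ± 0.27), the motor subunit *Kif3a* (1.11 ± 0.21) and the actin regulator *Pfn2* (1.06 ± 0.27) rose less. Without P1 replicate 2 the number of rises was 3, and with library size only 2. *Tuba4a* shares 37.3% of its exon bases with *Stk16*. The median of the list was 0.07, beside 0.06 over all genes. *Stmn1*, a microtubule destabiliser of growing neurites, had 332, 384 and 385 RPKM at E15.5 and 255, 196 and 183 at P1 and a log2 fold change of -0.80 that stayed under 2-fold. With 1 library left out, calls were lost for *Tuba8* without any 1 library other than P1 replicate 1 (limma-voom BH-adjusted p = 0.0778 to 0.139), *Tubb2a* without E15.5 replicate 1 or P1 replicate 2 (adjusted p = 0.0796 and 0.077), *Kif3a* without P1 replicate 1 (log2 fold change 0.96) and *Pfn2* without E15.5 replicate 3 or P1 replicate 2 or 3 (adjusted p = 0.0553 to 0.0806). Among the alternatives, the fit of the 6 libraries did not call *Tuba8* or *Pfn2* and DESeq2 did not call *Tubb2a*.

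**Figure D3:**
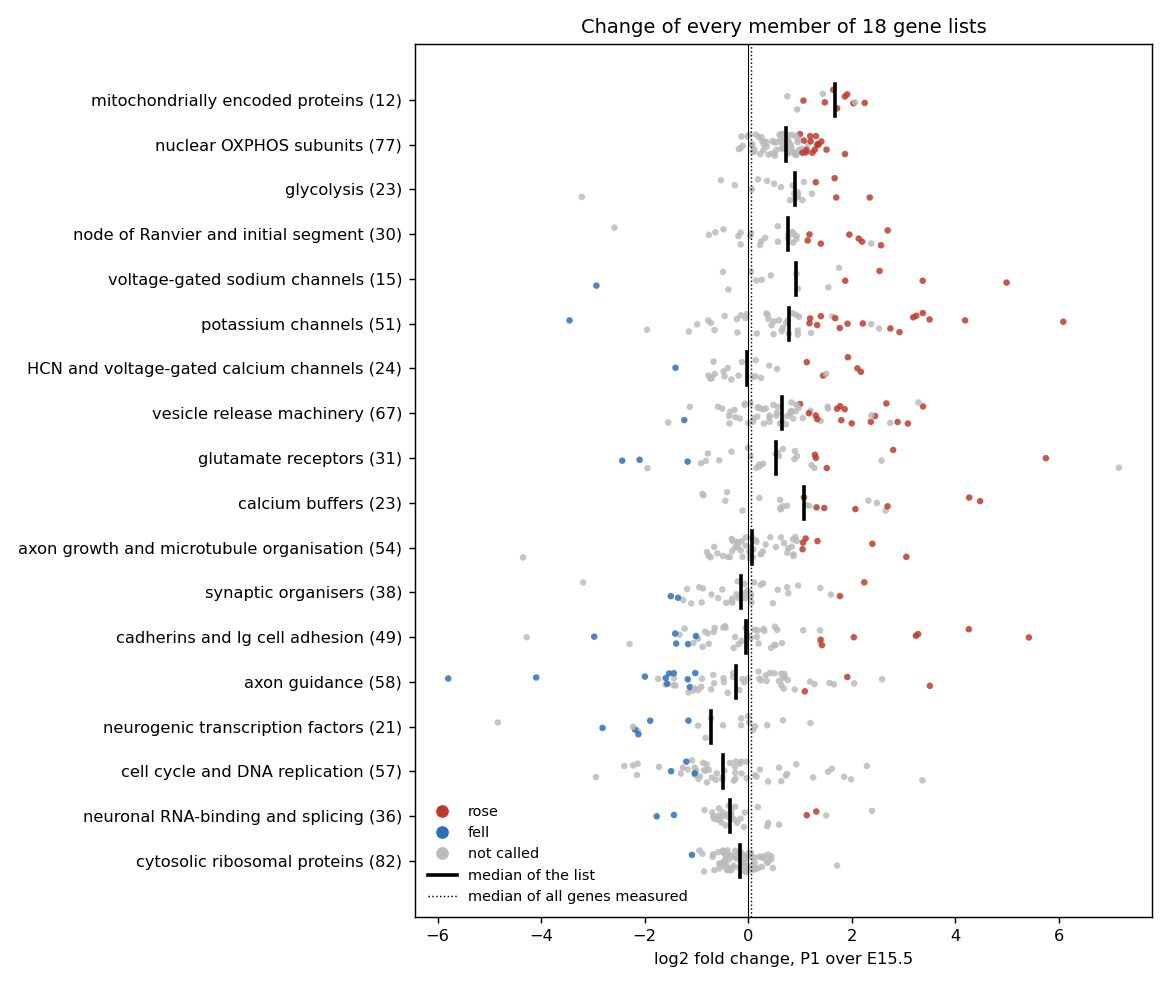
Each point is a measured gene of 18 gene lists (rows, with the number measured in parentheses), at its log2 fold change of P1 over E15.5 on the x axis. Red points rose, blue points fell and grey points were not called, thick bars mark list medians and the dotted line the median of 0.06 over all 14269 genes; the mitochondrially encoded list lies farthest right (median 1.68).

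By limma-voom, genes of energy metabolism rose in 3 groups and fell in none of them. All 12 measured proteins encoded in mitochondrial DNA had positive log2 fold changes (median 1.68) and 8 rose, and of 77 nuclear subunits of the respiratory chain and ATP synthase 72 were positive, 16 rose (20.8%, against 5.31% of all genes described) and none fell. *mt-Nd1*, a complex I subunit, had 572, 639.6 and 725 RPKM at E15.5 and 2235, 2689 and 2416 at P1 (log2 fold change 1.91, standard error 0.16, limma-voom BH-adjusted p = 5.68e-06). *Cycs*, cytochrome c, had 7.57, 19.5 and 15 RPKM at E15.5 and 48.4, 56.2 and 45 at P1 (log2 fold change 1.87, standard error 0.29, limma-voom BH-adjusted p = 0.00117). *Atp5b*, the catalytic ATP synthase subunit, had 260.4, 252 and 238 RPKM at E15.5 and 487, 670.2 and 499 at P1 (log2 fold change 1.13, standard error 0.13, limma-voom BH-adjusted p = 0.000122). In all 3 genes the P1 libraries lay above the E15.5 libraries. *Ndufa8*, *Cyc1* and *Uqcrh*, of complexes I and III, rose by 1.51, 1.36 and 1.31. Mitochondrial genes took 9.57% to 13.5% of counts at E15.5 and 16.4% to 19.5% at P1. The rises of the mitochondrially encoded list numbered 3 without E15.5 replicate 1 or 3 or P1 replicate 2, 3 with sample quality weights and 2 with a weight per age. Those of the nuclear list numbered 9 without P1 replicate 2, 8 in the fit of the 6 libraries, 8 with a weight per age and 10 with library size only, with none falling in any of these. Leaving out 1 library ended the call of *Atp5b* without P1 replicate 2 (log2 fold change 0.98).

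*Ppargc1a*, the coactivator PGC-1alpha that switches on mitochondrial genes together with oestrogen-related receptors, had 3.30, 5.06 and 6.09 RPKM at E15.5 and 32.7, 51.6 and 39.4 at P1 (log2 fold change 3.06, standard error 0.27, limma-voom BH-adjusted p = 1.33e-05), an increase seen in every P1 library. *Esrrg*, the receptor gene that the study names, had 54.6, 41.7 and 67.8 RPKM at E15.5 and 88, 107 and 82.1 at P1, a difference under 2-fold (log2 fold change 0.78, standard error 0.18, limma-voom BH-adjusted p = 0.0134). Of 23 genes of glycolysis and of pyruvate use 4 rose (17.4%, against 5.31% of all genes described) and none fell, with a median of 0.91. The number of rises was 7 without E15.5 replicate 2 and 3 without E15.5 replicate 1 or P1 replicate 2. It was 3 in the fit of the 6 libraries, 3 with sample quality weights and 2 with a weight per age. DESeq2 and the quasi-likelihood test of edgeR each called 5 rises and 1 fall. *Eno2*, the neuronal enolase, had 16.2, 18.2 and 16.1 RPKM at E15.5 and 70.2, 98.1 and 94.2 at P1 (log2 fold change 2.35, standard error 0.24, limma-voom BH-adjusted p = 2.89e-05), without overlap. *Pdha1* (1.67 ± 0.36), the gateway from glycolysis to the citric acid cycle, *Aldoc* (1.70 ± 0.43) and *Ldhb* (1.31 ± 0.30) also rose. None of 16 hypoxia targets was called by limma-voom (5 had an unadjusted p under 0.05, and DESeq2 called 3 and edgeR 2), and the 82 cytosolic ribosomal protein genes, none of which rose, had a median of -0.16. Of all genes described, 5.31% rose and 3.36% fell. The call lost without 1 library was that of *Aldoc* without E15.5 replicate 1 or P1 replicate 2 (limma-voom BH-adjusted p = 0.0512 and 0.0532). The fit of the 6 libraries did not call *Aldoc*.

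The element of oestrogen-related receptors, TCAAGGTCA, was searched on both strands in RefSeq promoters (GRCm38.p6, from 250 bases before to 50 bases after a gene's start), which matched 9957 of the 14269 genes by symbol. It stood in 8 of 546 promoters of genes that rose (1.47%), 1 of 302 of genes that fell (0.331%), 21 of 9109 not called (0.231%) and 110 of all 27025 promoters (0.407%). The risen genes with the element included *Syt2*, *Hcn2* and *Sdhd*, and 2 of 64 promoters of the respiratory chain list held it. The stretches around the element in *Syt2* and *Hcn2*, a vesicle and a channel gene described below, are shown on the plus strand with the element, here in reverse, in capitals. They lie at chr1:134646400-134646498 and chr10:79716421-79716519, and the first base of the element is 167 and 168 bases before the start.
Syt2: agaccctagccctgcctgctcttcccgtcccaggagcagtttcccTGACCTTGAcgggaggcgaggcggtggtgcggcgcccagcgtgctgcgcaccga
Hcn2: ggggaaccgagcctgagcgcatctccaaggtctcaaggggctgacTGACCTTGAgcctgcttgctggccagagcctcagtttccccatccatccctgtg
In both promoters the element reads TGACCTTGA on the strand of the gene. A match describes these letters and is not evidence of binding. E2F elements (TTTCCCGC, TTTGGCGC or TTTCGCGC, both strands) stood in 1.83% of risen, 2.65% of fallen and 3.62% of promoters not called, and in 12 of 45 promoters of the cell cycle list.

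Genes of ion channels, not all of them voltage-gated, rose in several families. Of 15 genes of sodium channels, their beta subunits and intracellular partners 4 rose (26.7%) and 1 fell (6.67%), with a median log2 fold change of 0.93. Of 51 potassium channel genes 16 rose (31.4%) and 1 fell (1.96%), with a median of 0.79. These shares stand beside 5.31% and 3.36% of all genes described. *Scn1a*, which encodes the axonal sodium channel Nav1.1, had 0.891, 2.68 and 1.08 RPKM at E15.5 and 11.1, 16.4 and 18.6 at P1 (log2 fold change 3.37, standard error 0.45, limma-voom BH-adjusted p = 0.000331). *Scn11a*, the slow sodium channel Nav1.9 of sensory neurons, went the other way, with 10.2, 9.02 and 9.62 RPKM at E15.5 and 1.38, 1.31 and 1.03 at P1 (log2 fold change -2.93, standard error 0.59, limma-voom BH-adjusted p = 0.00554). Neither gene overlapped between the ages. *Fgf12*, an intracellular partner of sodium channels, rose by 2.54 ± 0.47 and the beta subunit gene *Scn2b* by 1.88 ± 0.48. The remaining rise, *Scn4a*, was low, with a mean of 0.237 RPKM at P1. *Scn8a* (0.93 ± 0.27) and *Scn9a* (0.15 ± 0.31) were not called. The number of sodium channel rises was 2 without E15.5 replicate 3 or P1 replicate 2. In fits without 1 library, the call was lost for *Scn2b* without E15.5 replicate 3 or P1 replicate 2 (limma-voom BH-adjusted p = 0.0934 and 0.0604). Among the alternatives, the quasi-likelihood test of edgeR and DESeq2 did not call *Scn11a*.

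Of the potassium channels, *Kcnq3*, a subunit of the M current that restrains repetitive firing, had 14.9, 10.3 and 19.5 RPKM at E15.5 and 32.2, 47.4 and 36.8 at P1 (log2 fold change 1.40, standard error 0.21, limma-voom BH-adjusted p = 0.000968). *Kcnt1*, a sodium-activated channel, had 4.09, 4.64 and 8.63 RPKM at E15.5 and 17.4, 20.4 and 16.2 at P1 (log2 fold change 1.68, standard error 0.30, limma-voom BH-adjusted p = 0.00277). *Kcnk9*, a leak channel, had 7.50, 5.08 and 1.85 RPKM at E15.5 and 20.7, 31.2 and 31.8 at P1 (log2 fold change 2.75, standard error 0.56, limma-voom BH-adjusted p = 0.00611). Each was higher in all P1 libraries than in any E15.5 library. *Kcnh4*, of the ether-a-go-go family, had 7.997, 8.22 and 9.64 RPKM at E15.5 and 0.857, 0.462 and 1.21 at P1 (log2 fold change -3.45, standard error 0.53, limma-voom BH-adjusted p = 0.000968), and *Kcnh2*, of the same family, rose (1.33 ± 0.18). *Kcnd2*, *Kcnip1*, *Kcnip3*, *Kcnn1* and *Kcnn2*, of the A-type and small-conductance calcium-activated channels, rose by 2.92 to 3.51. In the fit of the 6 libraries 7 of the 16 rises kept their calls, and 3 were kept in every alternative and leave-one-out fit. The number of rises was 10 without E15.5 replicate 3, 6 with sample quality weights, 3 with a weight per age and 19 with DESeq2. *Kcna2* rose by 1.18 ± 0.28, while the most abundant members not called included *Kcna1* (6.87, 12.3 and 14.3 RPKM at E15.5 and 15.7, 25.5 and 20.3 at P1). With 1 library left out, calls were lost for *Kcnip1* without E15.5 replicate 3 (limma-voom BH-adjusted p = 0.07), *Kcnip3* without E15.5 replicate 2 or 3 (adjusted p = 0.0601 and 0.0913), *Kcnn1* without E15.5 replicate 3 (adjusted p = 0.0517), *Kcnn2* without E15.5 replicate 3 (adjusted p = 0.0623) and *Kcna2* without E15.5 replicate 3 (adjusted p = 0.0677). *Kcnip1*, *Kcnip3*, *Kcnn1*, *Kcnn2* and *Kcna2* lost their calls in the fit of the 6 libraries and *Kcnh4*, *Kcnip3* and *Kcnn1* lost their calls in the quasi-likelihood test of edgeR.

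Pacemaker and calcium channel genes gave 5 rises (20.8%, against 5.31% of all genes described) and 1 fall (4.17%, against 3.36%) among 24. The median was -0.02. *Cacna1d*, an L-type calcium channel that the study names, had 10.6, 5.91 and 6.67 RPKM at E15.5 and 19.3, 17.8 and 23.5 at P1 (log2 fold change 1.45, standard error 0.22, limma-voom BH-adjusted p = 0.000863). *Cacna1e*, the R-type channel, had 68.7, 39.4 and 83.5 RPKM at E15.5 and 24.1, 20.6 and 24 at P1 (log2 fold change -1.41, standard error 0.23, limma-voom BH-adjusted p = 0.00167). The ages separated in opposite directions in these genes. *Hcn2* (2.18 ± 0.64), a channel of the hyperpolarisation-activated current, and the calcium channel beta subunit gene *Cacnb2* (1.93 ± 0.33) rose. *Hcn3* (1.13 ± 0.31) rose as well. The number of rises was 3 without E15.5 replicate 1 or 3 or P1 replicate 1 or 2. Leaving out 1 library ended the calls of *Hcn2* without any 1 library other than P1 replicate 3 (limma-voom BH-adjusted p = 0.0623 to 0.0973) and *Hcn3* without E15.5 replicate 1 or 3 or P1 replicate 1 or 2 (adjusted p = 0.0597 to 0.0841). As alternatives, the fit of the 6 libraries did not call *Hcn2* or *Hcn3* and the quasi-likelihood test of edgeR and DESeq2 did not call *Cacna1e*.

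**Figure D4:**
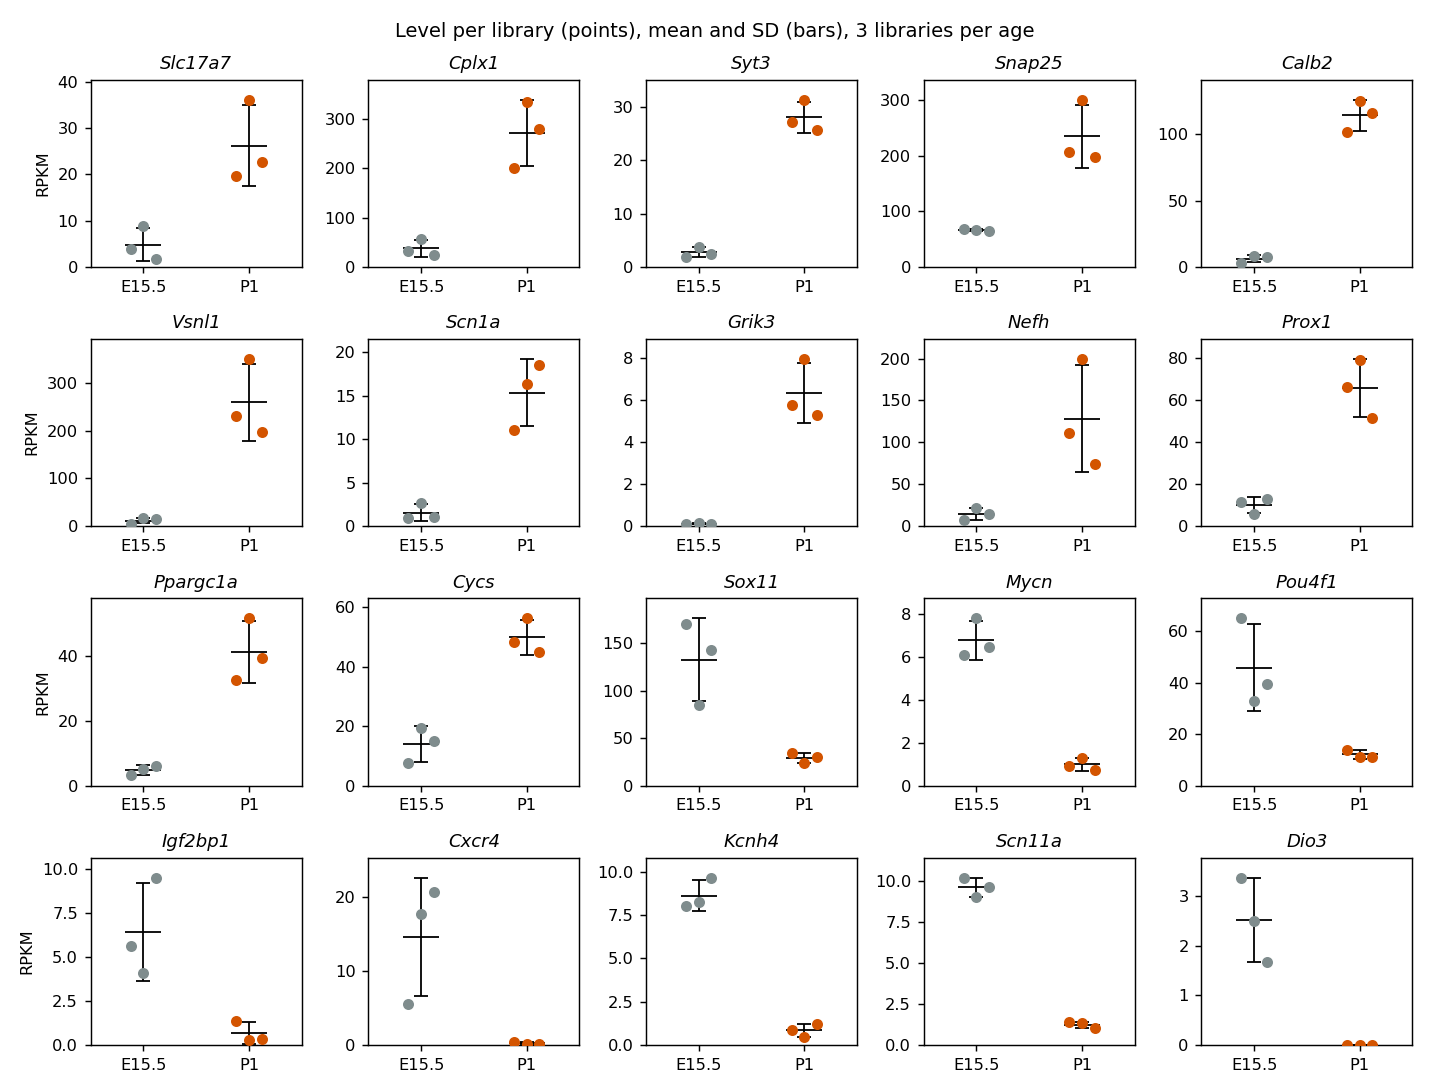
Each panel shows 1 gene, with RPKM on the y axis from 0, points for the 3 libraries of E15.5 (grey) and P1 (orange), and bars for the mean and SD. The points of the ages do not overlap in any of the 20 panels, from *Slc17a7* and *Cplx1*, which rose, to *Scn11a* and *Dio3*, which fell. All were picked from called genes, of which 736 of 758 rises and 458 of 480 falls separate the ages. The choice of genes therefore nearly fixes that separation.

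Genes of transmitter release rose more often than they fell. Of 67 measured genes 54 had positive log2 fold changes, with a median of 0.66. Of these 67 genes 15 rose (22.4%, against 5.31% of all genes described) and 1 fell (1.49%, against 3.36%). *Cplx1*, a complexin that clamps and times vesicle fusion, had 31.4, 57.3 and 24.2 RPKM at E15.5 and 199.9, 334 and 279.5 at P1 (log2 fold change 2.89, standard error 0.29, limma-voom BH-adjusted p = 2.37e-05). *Snap25*, a plasma membrane SNARE, had 67.3, 66.3 and 64.8 RPKM at E15.5 and 206, 300.5 and 198 at P1 (log2 fold change 1.80, standard error 0.17, limma-voom BH-adjusted p = 1.49e-05). *Syt3*, a calcium sensor of vesicles, had 1.94, 3.75 and 2.45 RPKM at E15.5 and 27.2, 31.4 and 25.6 at P1 (log2 fold change 3.38, standard error 0.48, limma-voom BH-adjusted p = 0.000551). In these 3 genes the lowest P1 library exceeded the highest E15.5 library. *Syt2* (2.45 ± 0.39), the fast calcium sensor whose promoter stretch is shown above, and *Syt7* (1.78 ± 0.22), *Vamp1* (2.00 ± 0.46), *Rph3a* (1.72 ± 0.33), *Nsf* (1.33 ± 0.23) and *Dnm1* (1.30 ± 0.22) rose as well. The fit of the 6 libraries kept 12 of the 15 rises, and 8 were kept in every alternative and leave-one-out fit. *Syt4* and *Sncb* were also called, and *Unc13b*, a priming factor, fell by 1.24 on the log2 scale. Calls lost without 1 library were those of *Syt4* without E15.5 replicate 1 or 3 or P1 replicate 2 or 3 (limma-voom BH-adjusted p = 0.0558 to 0.219), *Sncb* without E15.5 replicate 2 or 3 or P1 replicate 2 or 3 (adjusted p = 0.0512 to 0.196) and *Unc13b* without E15.5 replicate 1 or 3 or P1 replicate 2 (adjusted p = 0.0779 to 0.121). No call was made by the fit of the 6 libraries for *Syt4* or *Sncb* and the quasi-likelihood test of edgeR and DESeq2 for *Syt4*, *Sncb* or *Unc13b*.

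Of 23 calcium-binding protein genes 7 rose (30.4%, against 5.31% of all genes described) and none fell. The median log2 fold change was 1.08. *Vsnl1*, a neuronal calcium sensor, had 4.94, 16.5 and 14.3 RPKM at E15.5 and 230.0, 349.6 and 198 at P1 (log2 fold change 4.48, standard error 0.43, limma-voom BH-adjusted p = 1.87e-05). *Calb2*, calretinin, a buffer that marks type Ia SGNs in the adult, had 3.04, 7.84 and 7.26 RPKM at E15.5 and 102, 125 and 116 at P1 (log2 fold change 4.27, standard error 0.58, limma-voom BH-adjusted p = 0.000387). The calmodulin gene *Calm2* rose less (1.32 ± 0.18). *Pvalb*, parvalbumin, had 121, 161 and 149 RPKM at E15.5 and 198, 243 and 226 at P1 and was not called (limma-voom BH-adjusted p = 0.165). Both *Vsnl1* and *Calb2* separated the ages in every library, and *S100b* (2.69 ± 0.67), *Necab1* (2.07 ± 0.44) and *Hpca* (1.47 ± 0.42) also rose. Dropping single libraries removed the calls of *S100b* without E15.5 replicate 3 (limma-voom BH-adjusted p = 0.0831) and *Hpca* without any 1 library other than E15.5 replicate 2 (adjusted p = 0.0516 to 0.0987). Among the alternatives, the fit of the 6 libraries, the quasi-likelihood test of edgeR and DESeq2 did not call *Hpca*.

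Glutamate receptor genes moved in both directions, with 5 rises (16.1%) and 3 falls (9.68%) among 31, beside 5.31% and 3.36% of all genes described. *Grik3*, a kainate receptor subunit, had 0.0898, 0.141 and 0.108 RPKM at E15.5 and 5.78, 7.96 and 5.31 at P1 (log2 fold change 5.75, standard error 1.33, limma-voom BH-adjusted p = 0.0119). *Neto2*, an auxiliary subunit of kainate receptors, had 17.9, 7.98 and 10.5 RPKM at E15.5 and 2.42, 3.03 and 2.43 at P1 (log2 fold change -2.10, standard error 0.34, limma-voom BH-adjusted p = 0.00136). *Grin1*, the obligate NMDA receptor subunit, rose (1.29 ± 0.20), as did the scaffolds *Homer2* (1.52 ± 0.26) and *Dlg2* (1.31 ± 0.18) and the metabotropic receptor gene *Grm7* (2.80 ± 0.55). The P1 libraries lay above all E15.5 libraries in the kainate receptor gene and below them in its partner. The AMPA receptor genes *Gria2* (0.53 ± 0.27), *Gria3* (0.90 ± 0.23) and *Gria4* (0.29 ± 0.25) were not called. *Homer3*, which fell by 2.44 on the log2 scale, shares 25.4% of its exon bases with *Ddx49*, and *Grm8* was the remaining fall. Of 28 genes for GABA, glycine, nicotinic and purinergic receptors, *Gabbr2* and the glycine receptor gene *Glrb* (3.10 ± 0.64) rose. That is 7.14%, beside 5.31% of all genes described. In fits without 1 library, calls were lost for *Grik3* without E15.5 replicate 3 (limma-voom BH-adjusted p = 0.0623), *Homer3* without P1 replicate 1 or 2 (adjusted p = 0.0519 and 0.101) and *Grm8* without any 1 library other than E15.5 replicate 3 (adjusted p = 0.0546 to 0.142). *Homer3* and *Grm8* lost their calls in the fit of the 6 libraries and *Homer3* lost its call in the quasi-likelihood test of edgeR.

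Genes of the node of Ranvier and the axon initial segment gave 8 rises and no fall among 30, with a median of 0.77. The rises are 26.7% of the list, against 5.31% of all genes described. *Lgi2*, a secreted protein that binds ADAM receptors, had 10.6, 11.7 and 11.9 RPKM at E15.5 and 49.4, 55.6 and 46.1 at P1 (log2 fold change 2.14, standard error 0.24, limma-voom BH-adjusted p = 5.39e-05). *Cntnap2*, the Caspr2 protein that holds potassium channels beside the node, had 6.90, 4.65 and 5.78 RPKM at E15.5 and 20.1, 26.4 and 19.6 at P1 (log2 fold change 1.96, standard error 0.20, limma-voom BH-adjusted p = 2.39e-05). *Cntnap1*, the axonal paranodal protein Caspr, had 1.74, 6.23 and 1.70 RPKM at E15.5 and 8.01, 16.7 and 16.3 at P1 (log2 fold change 2.20, standard error 0.46, limma-voom BH-adjusted p = 0.00738). All 3 were higher in each P1 library than in any at E15.5. *Gldn*, gliomedin, rose by 2.70 ± 0.58. *Ank3*, which anchors channels at the initial segment, had 35.6, 21 and 31.8 RPKM at E15.5 and 38.4, 36.6 and 32.1 at P1 and *Nfasc* 24.9, 19.9 and 26.1 RPKM at E15.5 and 21.4, 23.3 and 18.9 at P1, and neither was called. The fit of the 6 libraries did not call *Cntnap1*.

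Subtype markers known from the adult moved unevenly. Of 21 measured genes *Calb2*, *Th*, *Pcdh20* and *Tsc22d3* rose and *Pou4f1*, *Gata3* and *Grm8* fell. These are 19.05% and 14.29%, beside 5.31% and 3.36% of all genes described. For *Pcdh20* the HC trace described above would give 158% of the P1 level, and its part was not tested. *Th*, tyrosine hydroxylase, which marks type II SGNs, had 0.0568, 2.15 and 0.947 RPKM at E15.5 and 6.61, 8.22 and 6.67 at P1 (log2 fold change 3.59, standard error 0.97, limma-voom BH-adjusted p = 0.0255), and *Ddc* and *Dbh*, the next enzymes of catecholamine synthesis, stayed at or under 0.0602 RPKM in all 6 libraries. Leaving out 1 library ended the call of *Th* without E15.5 replicate 1 or 3 or P1 replicate 2 (limma-voom BH-adjusted p = 0.0562 to 0.0752). No call was made by the fit of the 6 libraries for *Th* or *Tsc22d3* and the quasi-likelihood test of edgeR for *Th*.

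Growth factors and their receptors moved in both directions, with 4 rises (11.1%) and 5 falls (13.9%) among 36. Of all genes described, 5.31% rose and 3.36% fell. *Fgf10*, a secreted factor that SGNs and the cochlear duct make, had 31.3, 15.4 and 28.4 RPKM at E15.5 and 70.1, 75.5 and 63.4 at P1 (log2 fold change 1.56, standard error 0.28, limma-voom BH-adjusted p = 0.00244). *Fgfr1*, an FGF receptor, had 7.96, 8.06 and 7.56 RPKM at E15.5 and 2.96, 2.00 and 1.51 at P1 (log2 fold change -1.86, standard error 0.26, limma-voom BH-adjusted p = 0.000419). The P1 libraries lay all above and all below the E15.5 libraries, respectively. *Fgf9* (1.62 ± 0.37), *Fgf23* and *Igfbp3* (3.67 ± 0.87) rose, and *Gfra1* (-1.90 ± 0.46), *Jag1* (-2.30 ± 0.61), the hedgehog receptor gene *Ptch1* (-1.27 ± 0.24) and *Igf1r* (-1.24 ± 0.27) fell. The neurotrophin receptors on which SGN survival depends, *Ntrk2* (19.6, 16 and 24.6 RPKM at E15.5 and 32.5, 27.4 and 26.9 at P1) and *Ntrk3* (37.5, 29.3 and 28.4 RPKM at E15.5 and 32.9, 36.9 and 39.2 at P1), were not called. The number of falls was 3 without E15.5 replicate 3 or P1 replicate 2. Calls lost without 1 library were those of *Igfbp3* without E15.5 replicate 3 (limma-voom BH-adjusted p = 0.0689), *Gfra1* without E15.5 replicate 3 or P1 replicate 2 (adjusted p = 0.0622 and 0.0667) and *Jag1* without E15.5 replicate 3 or any P1 library (adjusted p = 0.0619 to 0.0736). Among the alternatives, the fit of the 6 libraries did not call *Fgf9* or *Jag1* and the quasi-likelihood test of edgeR and DESeq2 did not call *Gfra1*.

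*Dio3*, the enzyme that inactivates thyroid hormone, had 102, 104 and 70 counts at E15.5 (3.37, 2.50 and 1.68 RPKM) and 0 counts in each P1 library, so it was at least 46-fold lower at P1 against a floor of 3 counts per library (limma-voom BH-adjusted p = 0.000162). It was also at 0 in all later SGN libraries. *Thra*, a thyroid hormone receptor gene, had 29.1, 28.7 and 30.3 RPKM at E15.5 and 51.7, 51.1 and 41 at P1 and was not called. *Igf2bp1*, an oncofetal RNA-binding protein, had 5.62, 4.09 and 9.51 RPKM at E15.5 and 1.37, 0.255 and 0.352 at P1 (log2 fold change -3.45, standard error 0.57, limma-voom BH-adjusted p = 0.00154). Of 29 oncofetal and imprinted genes *Igf2bp1*, *Igf2bp2* and *Nnat* fell and *Meg3*, *Rian*, *Mest* and *Snrpn* rose, with a median of -0.32. The rises are 13.8% and the falls 10.3% of the list, beside 5.31% and 3.36% of all genes described. Dropping single libraries removed the calls of *Nnat* without E15.5 replicate 2 (log2 fold change -0.90), *Rian* without P1 replicate 3 (log2 fold change 0.98) and *Mest* without E15.5 replicate 1 or 3 or P1 replicate 1 or 2 (limma-voom BH-adjusted p = 0.0552 to 0.163). *Igf2bp2* and *Mest* lost their calls in the fit of the 6 libraries, *Igf2bp1*, *Igf2bp2*, *Nnat* and *Mest* lost their calls in the quasi-likelihood test of edgeR and *Igf2bp1*, *Nnat* and *Mest* lost their calls in DESeq2.

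Among RNA-binding and splicing factors 8 of 36 had positive log2 fold changes (median -0.36, beside 0.06 over all genes described). Of these 36 genes 2 rose and 2 fell, which is 5.56% in each direction, beside 5.31% and 3.36% of all genes described. *Celf3*, a neuronal splicing regulator, had 53.9, 42.3 and 49 RPKM at E15.5 and 19.6, 16.9 and 16.5 at P1 (log2 fold change -1.44, standard error 0.18, limma-voom BH-adjusted p = 0.0002), with the ages apart. *Celf4* had 19.3, 11.5 and 14.9 RPKM at E15.5 and 17.1, 17.4 and 24.2 at P1 and *Elavl4* 121, 94 and 83.7 RPKM at E15.5 and 104, 85.7 and 89.3 at P1, and neither was called. Of 34 chromatin remodelling and DNA methylation genes, *Dnmt3a*, a de novo DNA methyltransferase, had 9.66, 14.2 and 12.7 RPKM at E15.5 and 24.9, 29.1 and 26.1 at P1 (log2 fold change 1.13, standard error 0.15, limma-voom BH-adjusted p = 0.000357), *Dpf3* and *Hdac9* also rose, and *Dpf1*, a subunit of neuronal BAF complexes, fell. Of these 34 genes 8.82% rose and 2.94% fell, beside 5.31% and 3.36% of all genes described. In the fit of the 6 libraries 1 of the 3 rises of this list and none of its falls kept their calls. Of 12 granin and neuropeptide genes *Chga*, *Chgb* and *Scg5*, proteins of dense-core vesicles, rose by 1.44 to 1.79 and none fell. *Scrt1* (0.74 ± 0.26) and *Scrt2* (0.47 ± 0.25), zinc-finger genes the study names, were not called, nor were *Stmn3* (0.88 ± 0.25) and *Shox2* (0.67 ± 0.30). In fits without 1 library, calls were lost for *Dnmt3a* without E15.5 replicate 1 (log2 fold change 0.99) and *Dpf3* without E15.5 replicate 2 (limma-voom BH-adjusted p = 0.0511). As alternatives, the fit of the 6 libraries did not call *Dpf3*, *Hdac9* or *Dpf1* and the quasi-likelihood test of edgeR did not call *Dpf1*.

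Of 77 measured deafness genes 8 rose (10.4%) and 2 fell (2.60%), beside 5.31% and 3.36% of all genes described. The median was 0.46. *Adcy1*, an adenylyl cyclase, had 18.1, 21.4 and 16 RPKM at E15.5 and 58.5, 67 and 69.5 at P1 (log2 fold change 1.81, standard error 0.17, limma-voom BH-adjusted p = 1.49e-05). *Atp2b2*, a plasma membrane calcium pump, had 11.8, 16.6 and 13.4 RPKM at E15.5 and 33.1, 43.6 and 38.2 at P1 (log2 fold change 1.45, standard error 0.16, limma-voom BH-adjusted p = 5.3e-05). Both separated the ages in every library, and P1 SGNs held more *Adcy1* than HCs (5.27 ± 0.652 RPKM) but less *Atp2b2* (78.3 ± 5.14). *Crym* (2.33 ± 0.48), *Cib2* (2.19 ± 0.45), *Homer2*, *Tnc*, *Cdh23* and *Espn* also rose, the last of which is an HC marker, and *Ceacam16* and *Tectb*, of the tectorial membrane, fell. The HC trace described above would give 52.5%, 44.9% and 16.2% of the P1 level of *Cdh23*, *Tnc* and *Cib2*. For *Atp2b2*, *Homer2*, *Crym* and *Adcy1* it would give 13.7%, 10.5%, 1.11% and 0.543%. The part of that trace in these rises was not tested. Of 22 genes of the BCL2 family and the caspases 2 rose, of which *Bcl2l2* is one, and *Apaf1* and *Trp53* fell. That is 9.09% in each direction, beside 5.31% and 3.36% of all genes described. The fit of the 6 libraries kept the rises only. Lists with few calls were cholesterol and fatty acid synthesis (*Pmvk* rose and *Srebf1* fell, of 32), lysosome (*Gaa* rose, of 31) and immediate early and heat shock genes (none called of 30 by limma-voom, DESeq2 or edgeR, with 5 at an unadjusted limma-voom p under 0.05). The calls are 3.13% of the first list in each direction and 3.23% of the second, beside 5.31% of all genes described that rose and 3.36% that fell. With 1 library left out, calls were lost for *Apaf1* without any 1 library other than E15.5 replicate 1 (limma-voom BH-adjusted p = 0.0656 to 0.0972), *Trp53* without any 1 library other than P1 replicate 1 (adjusted p = 0.0544 to 0.145), *Pmvk* without any 1 library other than E15.5 replicate 2 (adjusted p = 0.0575 to 0.0834) and *Gaa* without E15.5 replicate 1 or 3 or P1 replicate 2 (adjusted p = 0.0501 to 0.0579). No call was made by the fit of the 6 libraries for *Apaf1*, *Trp53*, *Pmvk* or *Gaa* and the quasi-likelihood test of edgeR for *Apaf1* or *Trp53*.

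The levels at later ages place the P1 values. *Calb2* stood at 6.05 ± 2.62 RPKM at E15.5, 114 ± 11.6 at P1, 225 ± 34.9 at P8 and 459 ± 133 at P14 (mean ± SD, n = 3 libraries). *Snap25* went from 235 ± 56.9 at P1 to 752 ± 12.7 at P8 and 1969 ± 241 at P30, and *Nefh* from 128 ± 64.1 to 476 ± 122 and 796 ± 134 at P8 and P14. For these genes the P1 mean was below each later mean. *Prox1* was highest at P1 (65.6 ± 13.8) and lower at P30 (22 ± 3.96), where its SD range did not reach that of P1. The SD ranges of P1 and P30 did not meet in *Lgi2* (50.4 ± 4.83 and 42.1 ± 3.00) or *Cdh9* (14.6 ± 2.19 and 8.29 ± 0.783) either, both lower at P30. They overlapped in *mt-Nd1* (2447 ± 228 at P1, 2644 ± 477 at P30). Of the genes that fell, *Sox11* went on to 6.73 ± 1.73 at P8 and *Unc5b* to 5.23 ± 0.738, whereas *Mycn* (1.57 ± 0.302) and *Pou4f1* (17.9 ± 3.22) did not lie below their P1 means. These later values are descriptions with no test, since the comparisons of neighbouring ages share the P1 libraries.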

How the data were processed

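The authors mapped reads to mm10 with STAR 2.4.0i, counted them on GENCODE vM15 genes with featureCounts and deposited counts, not normalized, with gene lengths (strand and multimapping settings are not given in the sources used here). Symbols, positions and exon overlaps came from GENCODE M21 (GRCm38), which matched 52403 of 52550 genes. Counts were scaled with TMM (edgeR 4.0.16) and fitted with limma-voom (limma 3.58.1, R 4.3.3) over the 15 SGN libraries and the 15113 genes that exceeded 1 CPM throughout the 3 libraries of any age, with a mean per age and no covariate. Tests were two-sided, BH-adjusted over the 15113 genes, and called at an adjusted p under 0.05 with a change over 2-fold. RPKM used TMM effective library sizes over the 21 libraries, because *Gm23935*, a gene of 57 bases, took 18.8% to 68.1% of all TPM in the 6 libraries. Genes, lists and tests were chosen with earlier results of these data known, and lists carry no test of their own. Named genes are the 12 largest rises and falls with CPM over 10 in all 3 libraries of an age and no overlap between the ages, up to 8 called genes and the 3 highest not called of each list, all of lists of at most 12, markers of other cells and genes the study names. Chosen after their values were seen were *Ank3*, *Atp2b2*, *Atp5b*, *Cdh4*, *Dnm1*, *Ephb2*, *Gria2*, *Gria3*, *Gria4*, *Igf1r*, *Kcnh2*, *Kcnk9*, *Kirrel3*, *Mki67*, *Nfasc*, *Nsf*, *Ntrk2*, *Ntrk3*, *Plxna1*, *Rph3a*, *Scn8a*, *Sema3a*, *Sema6d*, *Syt7*, *Unc13b*, *Unc5c* and *Sdhd*. The 14 alternatives were edgeR's quasi-likelihood test, DESeq2 1.42.0, RLE factors, library size only, 3 other filters on low counts, no mitochondrial genes, the 6 or all 21 libraries, 2 kinds of quality weights, a replicate block and, added after seeing the data, edgeR on the 6 libraries, beside 6 fits without 1 library each and a test against a 2-fold change. Some genes that these rules name are not reported here. Python 3.11.15, numpy 2.4.6, pandas 2.3.3 and matplotlib 3.10.9 made tables and plots.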

Additional observations from a re-analysis of the deposited data

How the results depend on the processing

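The 1248 genes called among the 15113 tested (767 rose and 481 fell) numbered 576 (370 and 206) in the fit of only the 6 libraries and 492 (301 and 191) with edgeR's quasi-likelihood test on them, a fit chosen after seeing the data. Sample quality weights gave 552 (289 and 263), 1 weight per age 425 (234 and 191) and a test against a 2-fold change 37 (33 and 4). The sample weights were 0.430 to 0.532 for the E15.5 libraries and 0.663 to 1.53 for the P1 libraries. The fit of all 21 libraries gave 674 rises and 319 falls, DESeq2 1060 and 683, and library size only 569 and 649. Leaving out 1 library gave 701 to 1595 calls, 453 to 798 rises and 204 to 797 falls, lowest without P1 replicate 2 in calls and falls (701 and 204), without E15.5 replicate 3 in rises (453), and highest without E15.5 replicate 2 (1595, 798 and 797). Falls also moved by over 1.5 times without P1 replicate 1 (287) and P1 replicate 3 (300), and rises without P1 replicate 2 (497). Replicate numbers did not pair the libraries (r of deviations -0.056, -0.059 and 0.054), and a replicate block gave 1448 calls, 907 rises and 541 falls. Of 216 called genes of the lists and the largest changes, none changed sign in any of these fits, and 20 kept their calls in the test against 2-fold, 109 with a weight per age, 124 with edgeR on the 6 libraries, 131 with sample quality weights, 140 to 187 without 1 library, 147 in the 6 libraries and 213 with the block. The cause of these differences was not tested. Amplified pools of 69 to 195 cells and 3 libraries per age limit the precision of low genes.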

Other observations

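Of 294 antisense RNAs of the annotation 8 rose (2.72%) and 26 fell (8.84%), with a median log2 fold change of -0.47, and of 256 long intergenic RNAs 13 rose and 13 fell (5.08% each), with a median of 0.06. Of all genes described 5.31% rose and 3.36% fell. Among the intergenic and imprinted transcripts, *Meg3*, a maternally expressed long RNA (chromosome 12, 109541001 to 109571726), had 78.6, 67.2 and 102 RPKM at E15.5 and 171, 219.8 and 228 at P1 (log2 fold change 1.32, standard error 0.30, limma-voom BH-adjusted p = 0.0104). *Rian*, a further long RNA of the same imprinted domain (chromosome 12, 109603940 to 109661716), had 25.1, 28.7 and 24 RPKM at E15.5 and 48.6, 54.1 and 72.7 at P1 (log2 fold change 1.14, standard error 0.22, limma-voom BH-adjusted p = 0.00384). *Dio3*, which fell to 0 counts in each P1 library, lies in this domain too (chromosome 12, 110279068 to 110281097). The long RNAs were higher, and *Dio3* lower, in all P1 libraries than in any E15.5 library. *Meg3* lost its call with no filter on low counts and under both kinds of quality weights (limma-voom BH-adjusted p = 0.0732, 0.0838 and 0.107), and *Rian* was under 2-fold with library size only and without P1 replicate 3 (log2 fold change 0.99 and 0.98). *Snrpn*, of another imprinted domain, had 30.8, 54.2 and 37.4 RPKM at E15.5 and 112, 143 and 119 at P1 (log2 fold change 1.61, standard error 0.33, limma-voom BH-adjusted p = 0.00628), and it shares 27.3% of its exon bases with *Gm38393*.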
